A study of Mus musculus with 30 samples.

Results

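Cytosolic ribosomal protein genes were followed in primary cultures of mouse telencephalon, the embryonic forebrain, prepared at embryonic day 12.5. The set holds every gene with a probe set whose only platform symbol was Rpl or Rps followed by a digit, or Rplp0, Rplp1, Rplp2 or Rpsa, without kinases of the Rps6k family and without pseudogenes. This gave 48 of the 12394 genes with a probe set of their own, namely 22 large subunit proteins, 20 small subunit proteins and 6 paralogues (Rpl22l1, Rpl7l1, Rps27l, Rps4l, Rpl39l and Rpl3l). Genes entered the set by name only, though the set was chosen with earlier results of these data known. Each gene was read from its brightest probe set on these arrays. A filter on low signal kept 45 of the 48 among 7436 genes tested, and Rps27, Rpl39l and Rpl3l, with mean log2 signals of -0.57, -0.83 and -2.89, were left out.

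The 6 groups were knockout (KO, Xbp1 -/-) dishes without BDNF (basal) or with 24 h or 48 h of BDNF, and wild-type (WT, Xbp1 +/+) dishes in the same 3 states. Xbp1 drives transcription in the response to unfolded proteins in the endoplasmic reticulum, and BDNF is a neurotrophin that acts through the receptor TrkB. Each genotype was 1 pool of telencephalon cells, from 6 KO embryos and 4 WT embryos, divided over 15 dishes in serum-free medium, and 5 dishes per group gave 1 array each. P-values therefore reflect dish-to-dish spread within 1 pool per genotype, and genotype and pool cannot be told apart. BDNF (100 ng/ml) was added on day 3; basal and 24 h dishes were lysed on day 4 and 48 h dishes on day 5, so 48 h of BDNF and an extra day in culture cannot be told apart.

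Ribosomal proteins assemble with ribosomal RNA into a small subunit, which decodes the messenger RNA, and a large subunit, which joins amino acids. Their messenger RNAs typically begin with a terminal oligopyrimidine (TOP) tract, a C followed by a run of C and T, through which the kinase mTOR controls their translation together. BDNF is known to stimulate protein synthesis in neurons, in part through mTOR. In bulk RNA, fewer cells of a type and less RNA per cell cannot be told apart, and a transcript level says nothing of translation.

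The start of the transcript is shown for 10 members on which the results below turn, since it is where a TOP tract would lie. Each line runs 5′ to 3′ from 10 bases before to 20 bases from the annotated start (RefSeq, GRCm38.p6). Capitals mark the pyrimidine run that holds a C followed by at least 4 bases that are C or T. Only a run with that C within 5 bases of the start is marked.
Rps18, chr17:33955646-33955675, minus strand: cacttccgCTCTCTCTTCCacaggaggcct
Rps6, chr4:86857348-86857377, minus strand: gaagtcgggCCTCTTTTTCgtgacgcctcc
Rpl38, chr11:114668570-114668599, plus strand: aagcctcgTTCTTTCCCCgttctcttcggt
Rpl35, chr2:39005112-39005141, minus strand: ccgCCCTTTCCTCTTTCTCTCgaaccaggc
Rps26, chr10:128626487-128626516, minus strand: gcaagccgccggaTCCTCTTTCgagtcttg
Rps9, chr7:3704031-3704060, plus strand: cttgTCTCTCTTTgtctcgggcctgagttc
Rpl22, chr4:152324426-152324455, plus strand: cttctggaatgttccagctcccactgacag
Rpl22l1, chr3:28805498-28805527, plus strand: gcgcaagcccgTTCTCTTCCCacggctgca
Rps27l, chr9:66946076-66946105, plus strand: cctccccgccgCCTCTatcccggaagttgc
Rplp0, chr5:115559457-115559486, plus strand: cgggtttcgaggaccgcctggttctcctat

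In Rps18, Rps6, Rpl38 and Rpl35 the C lay at the annotated start itself. In Rps26, Rps9, Rpl22l1 and Rps27l it lay within 5 bases of it, and the windows of Rpl22 and Rplp0 held no such run there. Another listed start of Rps27l, not shown, had no such run. Genes with several listed starts were counted as matched where any of these matched. Of 42 members with a listed start, 8 (19%) had the C exactly at the start, against 3.01% of 27025 genes, and 20 (47.6%) had it within 5 bases, against 21.2%. Annotated starts are not always the ones used. An absent match says only that no such run had its C within 5 bases of the annotated start.

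Xbp1 was read on each array first. In basal dishes its log2 signal was 4.53, 4.65, 4.68, 4.70 and 4.70 in KO, against 4.37, 4.47, 4.44, 4.46 and 4.40 in WT. With 24 h of BDNF it was 4.53, 4.63, 4.70, 4.63 and 4.63 in KO, against 4.68, 4.47, 4.55, 4.50 and 4.55 in WT. With 48 h it was 4.74, 4.67, 4.76, 4.65 and 4.87 in KO, against 4.43, 4.54, 4.70, 4.70 and 4.82 in WT. Signal was thus present in both genotypes, and was higher in KO basal dishes than in WT basal dishes by 0.22 (adjusted p = 0.0050 by limma). Whether this probe set lies in the part removed from the gene is not given in the sources used here, so it does not check the genotype labels.

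Signals are given as log2 of the signal over the median of the array. Before scaling the array medians ranged from 81.9 to 138 intensity units. No array repeated another; pairwise correlations over genes ran from 0.970 to 0.992. The ratio of Gapdh signal from the 3′ and 5′ ends, which depends on how intact the RNA was and how far labelling reached, was 2.39 ± 0.21 in KO 48 h dishes against 2.73 ± 0.10 in KO basal dishes, and 2.47 ± 0.09 in WT 48 h dishes against 2.86 ± 0.10 in WT basal dishes (SD, n = 5 each). Of the 9 neuronal markers, Stmn2, Gap43 and Dcx averaged highest, at 5.89, 6.35 and 6.14. Snap25, Tubb3 and Nefl averaged 4.78, 4.55 and 4.25, and Nefm, Map2 and Syt1 were lowest, at 2.75, 1.67 and 0.40. The collagen transcripts Col1a2 and Col3a1 of mesenchymal cells averaged 5.93 and 5.27, and the 6 astrocyte markers ranged from -2.99 (Aqp4) and -2.86 (S100b), near the floor, over Gfap at -1.28, Aldh1l1 at -0.24 and Slc1a3 at 0.40, to 3.17 (Aldoc).

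Of the 45 genes tested, 34 had a mean log2 signal of 5 or more. The highest signals were those of Rps29, Rps2, Rps7, Rpsa and Rps14, all of the small subunit, at 6.99, 6.91, 6.81, 6.81 and 6.78. The lowest were those of Rpl39, Rpl12, Rpl14, Rps6 and Rpl27a, at 0.30, 0.45, 0.88, 1.04 and 1.05. These are levels of probe sets, which differ in brightness by design, and not of the transcripts against each other. For each of the 5 dim genes the array also holds a bright probe set that names further symbols, mostly pseudogenes or predicted genes, and it read 7.04 for Rpl39, 5.59 for Rpl12, 6.17 for Rpl14, 6.97 for Rps6 and 5.95 for Rpl27a. A further 25 ribosomal protein genes had only such shared probe sets and are not among the 48.

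**Figure D1:**
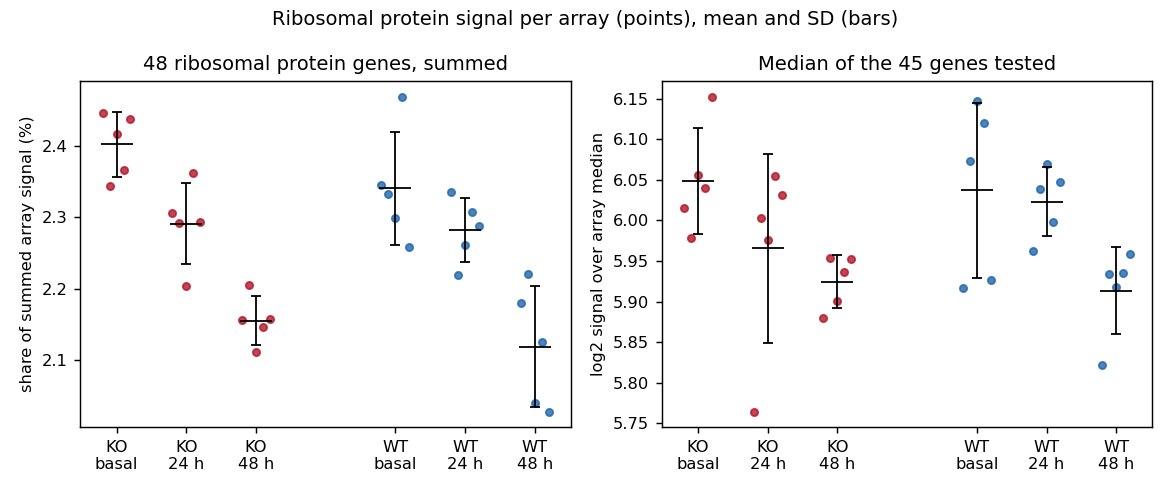
Left, the summed signal of the 48 genes as a percentage of the summed signal of each array; right, the median log2 signal of the 45 genes tested. Points are the 5 dishes of a group, bars the mean and SD, KO in red and WT in blue. The share at 48 h lies below that of basal dishes in both genotypes without overlap, while on the right 1 KO 24 h array stands apart at 5.76.

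The share of the array taken by these genes was lower at 48 h. It was 2.40 ± 0.04% in KO basal dishes, 2.29 ± 0.06% with 24 h of BDNF and 2.16 ± 0.03% with 48 h (SD, n = 5). In WT dishes it was 2.34 ± 0.08%, 2.28 ± 0.04% and 2.12 ± 0.08%. The KO 48 h arrays lay between 2.11% and 2.21%, against 2.34% to 2.45% in KO basal dishes; WT 48 h arrays lay between 2.03% and 2.22%, against 2.26% to 2.47% in WT basal dishes. Multiplying all values of an array by a factor leaves this share as it is. It was taken from the deposited values, and not after scalings that shift the genes of an array unequally.

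After 48 h of BDNF, 19 of the 45 genes tested were lower in KO dishes than in KO basal dishes and 1 was higher, relative to the array median (limma, Benjamini-Hochberg adjusted p under 0.05). That is 42.2% lower, against 9.47% of all genes tested, and 2.22% higher, against 19.4%. In WT dishes 21 were lower and 2 higher than in WT basal dishes, 46.7% and 4.44% against 15.7% and 20.5% of all genes. The median change of the 45 genes was -0.14 in KO and -0.13 in WT, with medians of 0.04 and 0.02 over all genes tested, and 39 and 41 of the 45 had a negative sign. The direction depended on the scaling. Without rescaling, 13 were higher and 0 lower in KO and 21 higher and 0 lower in WT. On those arrays the median gene was higher by 0.29 and 0.34. Of all genes, 49.6% were higher and 0.605% lower there in KO, and 57.7% and 1.24% in WT. Members were thus higher less often than all genes in both. Scaling to the 75th percentile gave 1 higher and 32 lower in KO, against 13.2% and 18.6% of all genes. In WT it gave 2 higher and 29 lower, against 15.5% and 23.3%. Quantile normalization gave 1 higher and 14 lower in KO, against 14.5% and 15.9%. In WT it gave 2 higher and 13 lower, against 15.7% and 21.1%.

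In KO 13 of the 45 genes (28.9%) were lower with all 48 h arrays below all basal ones, against 5.43% of all genes tested. In WT it was 5 of 45 (11.1%), against 8.23%, a share near that of all genes. The WT count of 21 was 10 without WT 48 h replicate 3 and 10 without WT basal replicate 4. The KO count of 19 stayed between 15 and 21 when any 1 array was left out. With the Gapdh ratio as a covariate 7 genes were lower in KO and 6 in WT; the part of RNA quality in the change was not tested beyond this.

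**Figure D2:**
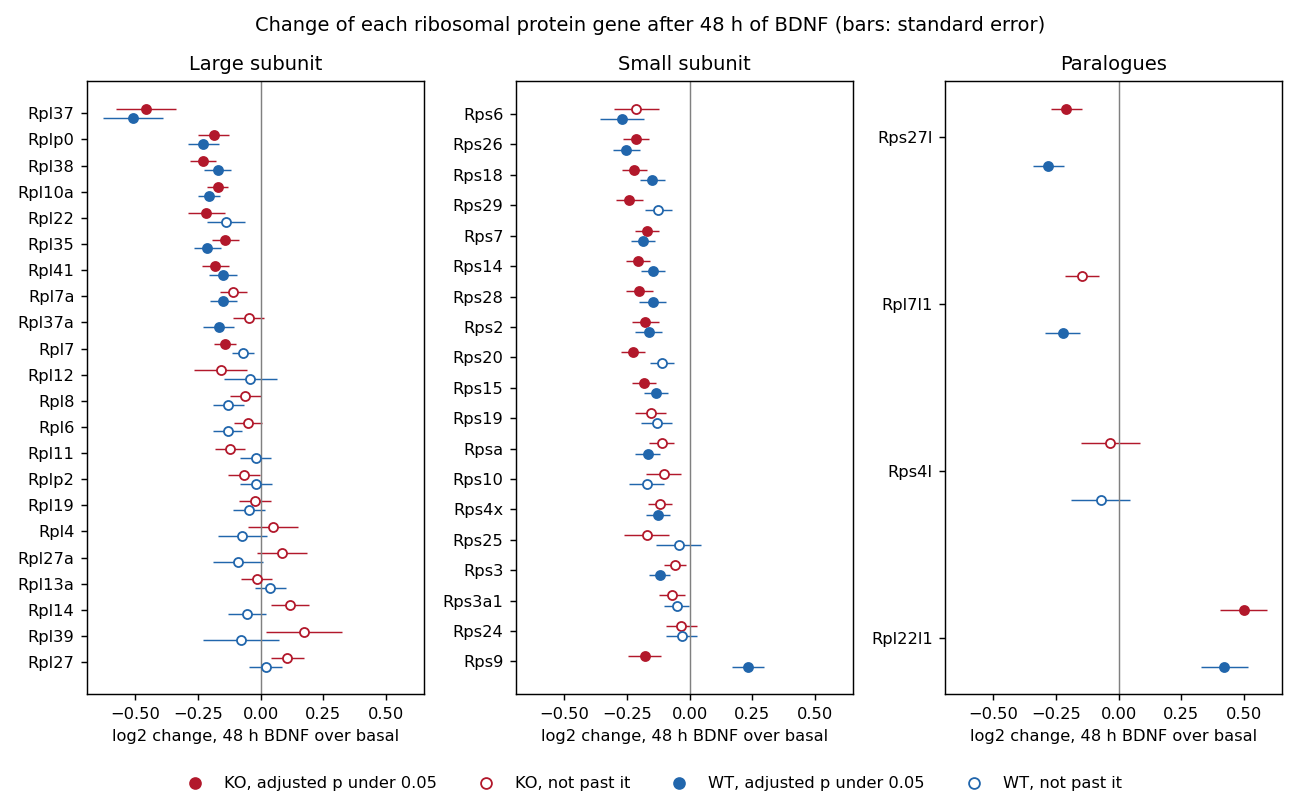
Log2 change of each of the 45 genes at 48 h of BDNF over basal, on the array-median scale, by subunit, KO in red above WT in blue; bars are the standard error, and filled points passed an adjusted p of 0.05. Points lie left of zero for 39 genes in KO and 41 in WT, with Rpl22l1 on the right in both genotypes; without rescaling of the arrays the medians lie right of zero.

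Of the genes that were lower, 14 were shared, 73.7% of the KO list and 66.7% of the WT list: Rpl10a, Rpl35, Rpl37, Rpl38, Rpl41, Rplp0, Rps14, Rps15, Rps18, Rps2, Rps26, Rps27l, Rps28 and Rps7. In the small subunit 10 of 19 genes tested were lower in KO and 11 in WT, with medians of -0.18 and -0.13. In the large subunit 8 of 22 were lower in KO and 8 in WT, with medians of -0.09 and -0.11. The difference between the subunits was not tested.

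Among small subunit genes, Rps26 had log2 signals of 5.52, 5.49, 5.49, 5.54 and 5.70 in KO 48 h dishes, against 5.74, 5.63, 5.83, 5.76 and 5.86 in KO basal dishes. In WT it had 5.53, 5.63, 5.54, 5.73 and 5.53 at 48 h, against 5.77, 5.85, 5.86, 5.95 and 5.79 in basal dishes. The WT groups were apart, and in KO the highest 48 h array, replicate 5, reached into the basal range. Rps26, a protein at the exit channel for messenger RNA, fell by 0.21 ± 0.05 in KO (SE, adjusted p = 0.0028) and by 0.25 ± 0.05 in WT (adjusted p = 0.000409), to 0.862 and 0.840 of the basal level.

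Rps29, a small zinc-binding protein, had 6.84, 6.93, 6.89, 6.77 and 6.75 in KO 48 h dishes, against 7.16, 7.07, 7.04, 7.06 and 7.05 in KO basal dishes, all 48 h arrays below all basal ones. It fell by 0.24 ± 0.05 in KO (SE, adjusted p = 0.0011), while the WT value of -0.12 ± 0.05 did not pass (adjusted p = 0.0696). Rps20 likewise fell by 0.23 ± 0.05 in KO (adjusted p = 0.000548), against a WT value of -0.11 that did not pass (adjusted p = 0.0695). Neither gene's response differed between genotypes by the test of the difference, and adjusted p-values of that test were 0.837 for Rps29 and 0.787 for Rps20. Rps18 fell by 0.22 in KO (adjusted p = 0.0010) and by 0.15 in WT (adjusted p = 0.0186), but its next probe set, at a mean of 5.45, gave 0.08 and -0.03. Rps6, read from its dim probe set, fell by 0.27 in WT (adjusted p = 0.0177), with -0.21 in KO (adjusted p = 0.0695). Its brightest shared probe set gave -0.14 in KO and -0.17 in WT. Rpsa, the laminin receptor homologue of the small subunit, fell by 0.17 in WT (adjusted p = 0.0091), with -0.11 in KO (adjusted p = 0.0916).

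Among large subunit genes, Rpl10a, a protein of the L1 stalk, had 5.91, 5.95, 5.92, 5.86 and 5.95 in KO 48 h dishes, against 6.08, 6.02, 6.13, 6.08 and 6.15 in KO basal dishes. In WT it had 5.94, 6.05, 5.93, 6.00 and 5.96 at 48 h, against 6.14, 6.19, 6.18, 6.29 and 6.10. The groups were apart in both genotypes. It fell by 0.17 ± 0.04 in KO (SE, adjusted p = 0.0028) and by 0.21 ± 0.04 in WT (adjusted p = 0.000325). Rplp0, the stalk protein often used as a reference transcript, fell by 0.19 in KO (adjusted p = 0.0228) and by 0.23 in WT (adjusted p = 0.0045). Rpl38, whose loss in mice causes skeletal patterning defects, fell by 0.23 in KO (adjusted p = 0.0013) and by 0.17 in WT (adjusted p = 0.0110). Rpl35 fell by 0.14 in KO (adjusted p = 0.0463) and by 0.21 in WT (adjusted p = 0.0023), and all 5 of its other probe sets also had a negative sign in both.

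The widest fall was that of Rpl37, by 0.46 ± 0.12 in KO (SE, adjusted p = 0.0044) and by 0.51 ± 0.12 in WT (adjusted p = 0.0012). Its own probe set is dim: it had 1.61, 1.54, 1.40, 1.25 and 1.23 in KO 48 h dishes, against 1.86, 1.96, 1.57, 1.93 and 2.00 in KO basal dishes. In WT it had 2.04, 1.56, 1.25, 1.52 and 1.05, against 2.08, 1.99, 2.16, 1.75 and 1.99. The groups overlap in both genotypes. The brightest probe set that it shares with Rpl37rt gave -0.08 in KO and -0.02 in WT.

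The paralogue Rpl22l1 went the other way. It had 5.06, 5.05, 5.05, 4.84 and 5.43 in KO 48 h dishes, against 4.44, 4.45, 4.82, 4.80 and 4.42 in KO basal dishes. In WT it had 5.08, 5.06, 5.06, 5.02 and 5.16 at 48 h, against 4.61, 4.62, 4.64, 4.86 and 4.54. All 48 h arrays lay above all basal arrays of their genotype. Rpl22l1 rose by 0.50 ± 0.09 in KO (SE, adjusted p = 0.000156, 1.41-fold) and by 0.42 ± 0.09 in WT (adjusted p = 0.000676, 1.34-fold). With 24 h of BDNF it had 4.81, 5.12, 4.98, 4.80 and 5.00 in KO, which overlaps the KO basal range, and rose by 0.35 ± 0.09 (adjusted p = 0.0121). The WT value at 24 h, 0.25 ± 0.09, did not pass (adjusted p = 0.0632). The 3 calls held in each alternative that was run. The response did not differ between genotypes by the test of the difference, at 0.08 with a 95% interval from -0.19 to 0.35 at 48 h.

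Rpl22 encodes the large subunit protein that Rpl22l1 can replace, and in mice Rpl22 protein is known to hold Rpl22l1 expression down. Its probe set had 4.58, 4.99, 5.07, 5.05 and 5.17 in KO 24 h dishes, against 5.25, 5.21, 5.34, 5.33 and 5.32 in KO basal dishes, with no overlap. It fell by 0.32 in KO at 24 h (SE 0.075, adjusted p = 0.0047), and by 0.22 without KO 24 h replicate 1, the lowest array (adjusted p = 0.0149). At 48 h it fell by 0.22 in KO (adjusted p = 0.0280), with 4.93, 5.14, 5.15, 5.21 and 4.93 on the arrays. In WT the values were 0.06 at 24 h (adjusted p = 0.659) and -0.14 at 48 h (adjusted p = 0.147). The difference of the 24 h responses, -0.38, did not pass (adjusted p = 0.242). A second, dimmer probe set of Rpl22 gave 0.05 at 24 h and 0.08 at 48 h in KO, so the fall was seen with 1 of 2 probe sets, and was -0.13 (adjusted p = 0.375) when both were averaged.

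**Figure D3:**
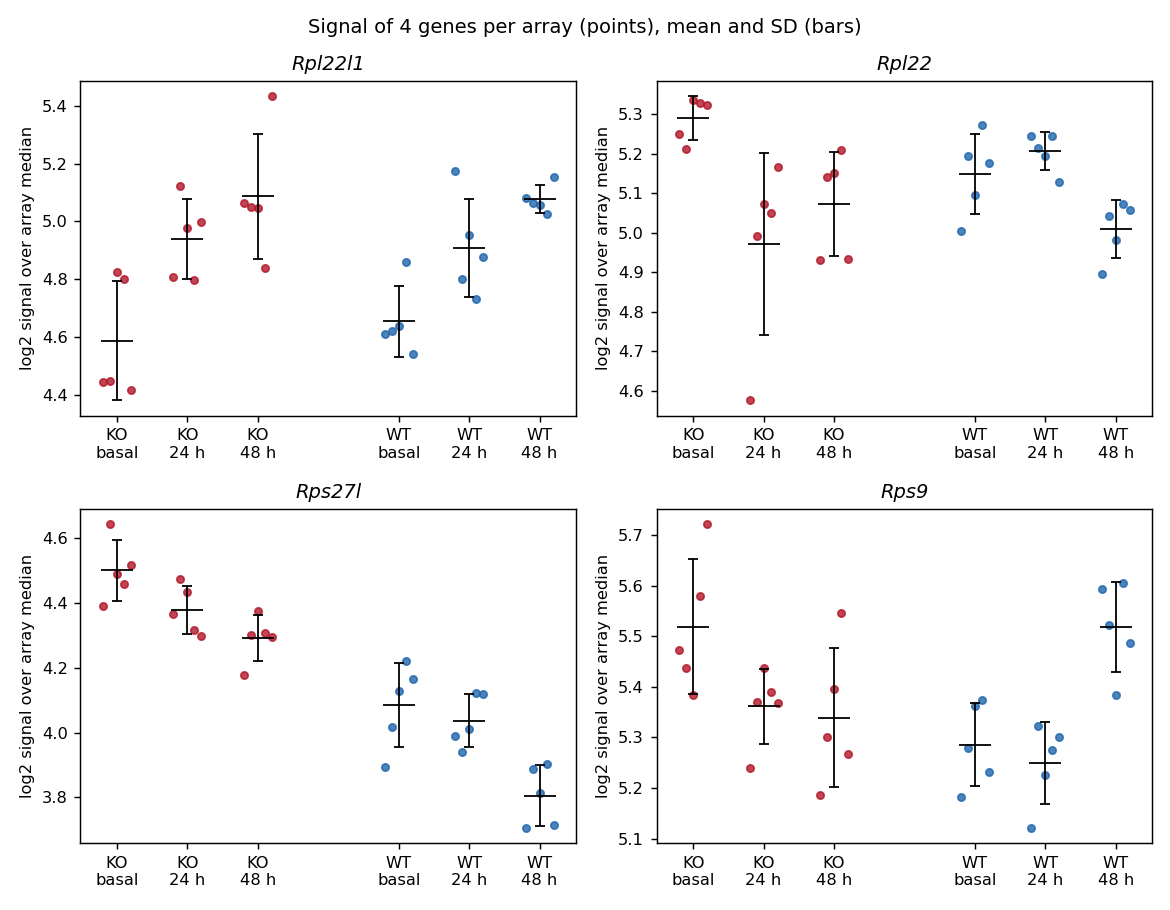
Log2 signal over the array median of Rpl22l1, Rpl22, Rps27l and Rps9 on each array; points are the 5 dishes of a group, bars the mean and SD, KO in red and WT in blue. Rpl22l1 is high at 48 h in both genotypes, and Rps27l lies higher in KO than in WT at each time. At 48 h the mean of Rps9 lies below that of basal dishes in KO and above it in WT. Its KO basal arrays lie above its WT basal arrays.

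Rps9, a protein of the small subunit body, was the only member called in opposite directions. It had 5.19, 5.30, 5.40, 5.55 and 5.27 in KO 48 h dishes, against 5.47, 5.44, 5.38, 5.58 and 5.72 in KO basal dishes, which overlap. In WT it had 5.59, 5.52, 5.38, 5.60 and 5.49 at 48 h, against 5.18, 5.28, 5.36, 5.37 and 5.23, which do not. It fell by 0.18 ± 0.06 in KO (SE, adjusted p = 0.0342) and rose by 0.23 ± 0.06 in WT (adjusted p = 0.0052). Basal dishes themselves differed, with Rps9 higher in KO than in WT by 0.23 (limma, adjusted p = 0.0064). The mean at 48 h was 5.34 in KO, against 5.29 in WT basal dishes, and 5.52 in WT, against 5.52 in KO basal dishes. The difference of the responses was -0.41 with a 95% interval from -0.60 to -0.22, and its adjusted p of 0.0506 missed the threshold. Its other probe sets read far lower, at 0.76 and -1.37, and gave -0.60 and -0.11 in KO and -0.31 and 0.17 in WT; with the 3 averaged the WT change was 0.03 (adjusted p = 0.834).

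At 24 h of BDNF few members passed; these comparisons share their basal dishes with those at 48 h. In KO dishes 4 of 45 were lower and 1 higher than in KO basal dishes, 8.89% and 2.22% against 5.55% and 5.96% of all genes tested, and the median change was -0.08 against 0.005 over all genes. Beside Rpl22 and Rps6 (by 0.27, adjusted p = 0.0452), Rpl7 fell by 0.16 (adjusted p = 0.0158) and Rps4x, the X-linked form of Rps4, by 0.15 (adjusted p = 0.0292), both with all 24 h arrays below all basal ones. For Rps6 the bright shared probe set gave 0.002, and the call of Rps6 was kept in 11 of 23 alternatives. The call of Rps4x was lost in 8 of 25 alternatives and that of Rpl7 in 4 of 25. For both genes these include the mean of probe sets. The KO count was 2 without KO basal replicate 4, KO basal replicate 5 or KO 24 h replicate 3. In WT dishes Rpl37 alone passed, with a fall of 0.36 (adjusted p = 0.0377), that is 1 lower and 0 higher against 6.4% and 8.04% of all genes, with 6 of 45 at an unadjusted p under 0.05; the count was 0 without any 1 of WT basal replicates 1, 2, 3 and 5 and WT 24 h replicates 2, 4 and 5. The median change in WT was -0.01.

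Between 24 h and 48 h of BDNF, 13 of 45 genes were lower and 1 higher in WT dishes at 48 h, 28.9% and 2.22% against 5.58% and 8.32% of all genes, with a median of -0.11. Among the genes called, the widest falls were those of Rps6 (by 0.28, adjusted p = 0.0305), Rpl14 (by 0.24, adjusted p = 0.0294), Rps27l (by 0.23, adjusted p = 0.0124), Rpl35 (by 0.22, adjusted p = 0.0050), Rpl6 (by 0.21, adjusted p = 0.0121) and Rpl7a (by 0.21, adjusted p = 0.0102). Rpl39, read from a dim probe set, had -0.29 and was not called (adjusted p = 0.191). Rps9 rose by 0.27 (adjusted p = 0.0055), with all 48 h arrays above all 24 h ones. Leaving out WT 48 h replicate 3 left 4 lower genes and leaving out WT 24 h replicate 1 left 5; it was 8 without any of WT 24 h replicates 4 and 5 and WT 48 h replicates 1, 4 and 5. In KO dishes limma called 0 members in either direction, where 2.35% of all genes were lower and 7.49% higher, with 5 of 45 at an unadjusted p under 0.05 and a median of -0.06. Whether the genotypes differ in this step was not tested.

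Comparisons between KO and WT dishes of the same time ask what the genotypes differ in. In basal dishes 3 of 45 members were lower in KO than in WT (between 0 and 3 with 1 array left out, 0 without KO basal replicate 2, and 1 without KO basal replicate 4 or WT basal replicate 2, 3 or 4) and 2 higher (4 without WT basal replicate 4), 6.67% and 4.44% against 18.7% and 9.2% of all genes, and the median was -0.03 against -0.09 over all genes. With 48 h of BDNF 2 were lower and 1 higher, 4.44% and 2.22% against 14.4% and 9.68%; 1 was lower without any of KO 48 h replicates 1, 2 and 5 and WT 48 h replicates 1, 2 and 4. With 24 h 10 were lower and 1 higher, 22.2% and 2.22% against 17.8% and 8.43%, with a median of -0.08 beside -0.09 over all genes. That count of 10 was 3 without WT 24 h replicate 1, 4 without KO 24 h replicate 1, 5 without KO 24 h replicate 3 or WT 24 h replicate 5, and 6 without KO 24 h replicate 2 or WT 24 h replicate 3. Direction depended on the scaling here too: quantile normalization gave 9 higher and 0 lower in basal dishes, 4 and 1 at 24 h, and 6 and 1 at 48 h. Of all genes under it, 11.7% were higher and 13.3% lower in basal dishes. At 24 h it was 10.3% and 9.71%, and at 48 h 11.3% and 9.95%. The shares of members that were higher at 24 h and 48 h were near those of all genes. The KO dishes carried more signal of the vascular and meningeal marker list, of which 5 of 5 tested were higher in KO than in WT at each time. The summed log2 level of that list ran from 7.38 to 7.66 in KO basal dishes, against 6.38 to 6.66 in WT basal dishes, with its endothelial markers Cldn5, Pecam1 and Tek near the floor in both. Of 3 astrocyte markers tested 3 were lower in KO than in WT in basal dishes, 2 at 24 h and 2 at 48 h, with medians of -0.61, -0.60 and -0.43; their summed level ran from 3.06 to 3.53 in KO basal dishes, against 3.90 to 4.38 in WT basal dishes. Of 9 markers of cycling cells 3 were lower in KO in basal dishes and 3 at 24 h, and 1 was higher at 48 h; their summed level ran from 5.93 to 6.14 in KO basal dishes, against 6.12 to 6.69 in WT basal dishes. The part of these lists in the genotype differences was not tested.

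Rps27l, the paralogue of Rps27 that p53 is known to induce, was higher in KO dishes at every time. In basal dishes it had 4.39, 4.64, 4.49, 4.46 and 4.52 in KO, against 3.89, 4.02, 4.13, 4.22 and 4.17 in WT. With 24 h of BDNF it had 4.37, 4.48, 4.43, 4.32 and 4.30 in KO, against 3.99, 3.94, 4.01, 4.12 and 4.12 in WT. With 48 h it had 4.18, 4.30, 4.38, 4.31 and 4.30 in KO, against 3.70, 3.89, 3.81, 3.90 and 3.71 in WT. All KO arrays lay above all WT arrays of the same time. The differences were 0.42 ± 0.06 (SE, adjusted p = 3.33e-06, 1.33-fold) in basal dishes, 0.34 ± 0.06 (adjusted p = 7.81e-05) at 24 h and 0.49 ± 0.06 (adjusted p = 1.85e-07, 1.40-fold) at 48 h. The other probe sets of Rps27l gave differences between 0.47 and 0.62, and the 3 calls held in each alternative that was run. Within both genotypes it was lower at 48 h than in basal dishes, by 0.21 in KO (adjusted p = 0.0116) and by 0.28 in WT (adjusted p = 0.000747); without rescaling these were 0.04 and 0.03.

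Rps14, a protein of the small subunit platform, was lower in KO than in WT at each time, with differences of -0.13 (adjusted p = 0.0378) in basal dishes, -0.20 (adjusted p = 0.0021) at 24 h and -0.19 (adjusted p = 0.0032) at 48 h. It had 6.59, 6.59, 6.61, 6.60 and 6.63 in KO 48 h dishes, against 6.82, 6.89, 6.72, 6.83 and 6.73 in WT 48 h dishes, with no overlap, and its second probe set gave -0.18, -0.14 and -0.17 at the 3 times. The basal call of Rps14 was lost in 16 of 24 alternatives, among them quantile, 75th percentile, cyclic loess and no rescaling and the fits without KO basal replicate 2, 4 or 5 or WT basal replicate 1, 2, 3 or 4. The 24 h call was lost in 4 of 24, the same scalings, and the 48 h call in 3 of 26. In basal dishes KO minus WT was -0.20 for Rpl37a (adjusted p = 0.0122), -0.11 for Rps3 (adjusted p = 0.0499) and 0.23 for Rps9 (adjusted p = 0.0064). The call of Rps3 was lost in 17 of 25 alternatives, among them the fits without KO basal replicate 1, 2, 3 or 4 or WT basal replicate 2, 3 or 4; that of Rpl37a was lost in 5 of 25, among them the fit without KO basal replicate 2, and that of Rps9 in 1 of 24. Rpl7l1 fell at 48 h in WT by 0.22 (adjusted p = 0.0105), with -0.15 in KO (adjusted p = 0.104), and Rps4l passed in no comparison.

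The difference between the genotypes' responses to BDNF gave 0 members past the threshold by limma at either time, where 0.0941% of all genes passed at 24 h and 0.134% at 48 h. At an unadjusted p under 0.05 there were 3 of 45 at 24 h and 1 at 48 h. At 48 h the count was 1 without KO 48 h replicate 4, WT 48 h replicate 3 or WT basal replicate 4. The median difference was -0.05 at 24 h and 0.02 at 48 h.

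The calls at 48 h were also counted among bright genes. Of the 34 members with a mean log2 signal of 5 or more, 50% were lower in KO and 50% in WT. Of 468 other genes at 5 or more, 16.7% were lower in KO and 16.5% in WT, with medians of -0.004 and -0.006. These genes and the members were not matched in brightness above that level. Saturation of the brightest probe sets was not tested; the highest signal on any array was between 16196 and 20384 intensity units.

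**Figure D4:**
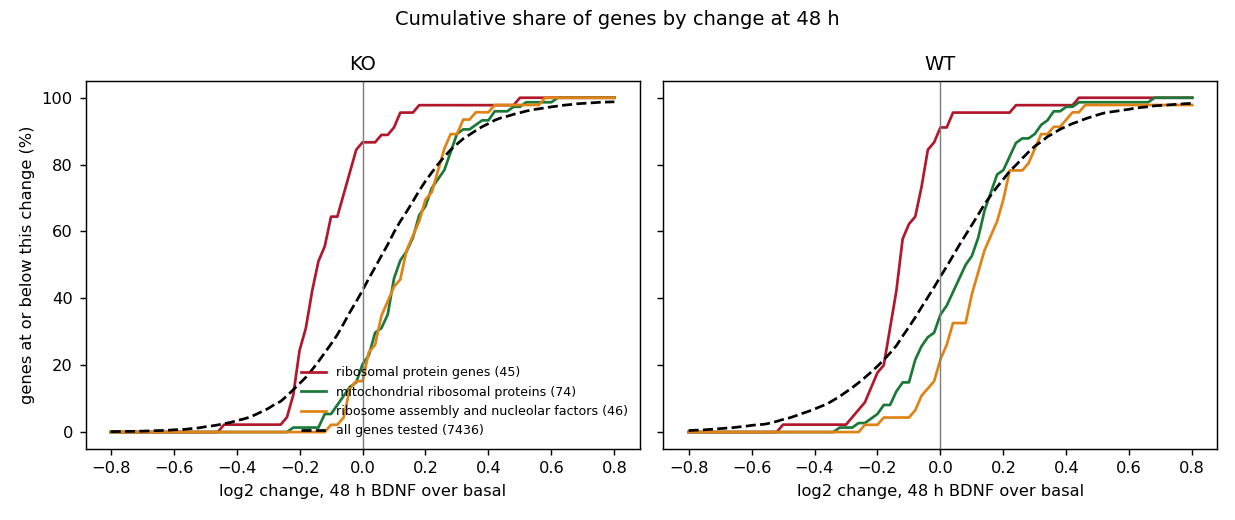
Percentage of genes at or below each log2 change at 48 h of BDNF over basal, on the array-median scale, KO left and WT right. The curve of the 45 cytosolic ribosomal protein genes lies left of all 7436 genes tested, and those of 74 mitochondrial ribosomal proteins and 46 assembly factors lie to the right of it; without rescaling all medians shift to higher values.

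Other lists of the translation machinery were written from general knowledge, and differences between lists were not tested. Of 74 mitochondrial ribosomal proteins, which are made in the cytosol and serve the separate mitochondrial ribosome, 20 (27%) were higher and 0 lower in KO at 48 h, against 19.4% and 9.47% of all genes (median 0.11, limma). In WT 14 (18.9%) were higher and 3 (4.05%) lower, against 20.5% and 15.7% (median 0.09), so the share that was higher was near that of all genes. Mrps6 rose by 0.60 in KO (adjusted p = 2.18e-06) and Mrpl37 by 0.66 in WT (adjusted p = 2.50e-05). Of 46 nucleolar and ribosome assembly factors 10 (21.7%) were higher and 0 lower in KO (median 0.13), and 13 (28.3%) higher and 1 (2.17%) lower in WT (median 0.13); the KO share that was higher was near that of all genes. Among them Ltv1, which helps to build the small subunit, rose by 0.56 in KO (adjusted p = 0.0012) and 0.39 in WT (adjusted p = 0.0168), and Pno1, another small subunit factor, by 0.35 (adjusted p = 0.0063) and 0.44 (adjusted p = 0.000518).

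Over all genes tested, 19.4% were higher and 9.47% lower in KO at 48 h, and 20.5% and 15.7% in WT. Of 16 further TOP transcripts, 6 of them elongation factors (Eef genes), 4 (25%) were lower and 1 (6.25%) higher in KO. In WT 5 (31.2%) were lower and 2 (12.5%) higher, and the medians were -0.05 in KO and -0.04 in WT. Eef1a1, the elongation factor that delivers transfer RNA, fell by 0.16 in KO (adjusted p = 0.0128) and 0.17 in WT (adjusted p = 0.0078). Its neuronal form Eef1a2 rose by 0.41 in KO (adjusted p = 6.04e-05) and 0.30 in WT (adjusted p = 0.0016). Of 32 initiation factors 6 (18.8%) were higher and 6 (18.8%) lower in KO, and 8 (25%) higher and 5 (15.6%) lower in WT. The share higher in KO and the share lower in WT were near those of all genes. Eif4ebp1, a repressor of initiation that mTOR inactivates, fell by 0.50 in KO (limma, adjusted p = 1.35e-05) and by 0.26 in WT (adjusted p = 0.0098). Of 12 genes for RNA polymerase I, which makes ribosomal RNA, 1 (8.33%) was higher and 2 (16.7%) lower in KO. In WT 3 (25%) were higher and 3 (25%) lower. Of 11 genes of mTOR and S6 kinase signalling 1 (9.09%) was higher in KO and 2 (18.2%) in WT, and 0 were lower in either. The WT share was near that of all genes. Fau, the one ribosomal protein gene measured outside the Rpl and Rps names, had -0.15 in KO (adjusted p = 0.0613) and -0.13 in WT (adjusted p = 0.0879), neither of which passed.

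The genes were also divided by the start of the transcript. Of 19 genes tested with a pyrimidine start within 5 bases, 7 were lower in KO and 8 in WT at 48 h, with medians of -0.11 and -0.09. Of 20 with a listed start without it, 8 were lower in KO and 12 in WT, with medians of -0.15 and -0.14; the difference was not tested. Across the 45 genes the change and the mean signal had a Pearson correlation of -0.18 in KO and 0.05 in WT; the points share the same arrays, and genes are not independent replicates.

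Cell type markers also moved at 48 h. Among all genes tested, 9.47% were lower and 19.4% higher in KO, and 15.7% lower and 20.5% higher in WT. All 3 erythroid markers tested were lower in both genotypes, with medians of -0.996 in KO and -0.989 in WT; their summed log2 level ran from 4.40 to 5.72 in KO 48 h dishes, against 5.60 to 6.43 in KO basal dishes, and from 4.72 to 5.58 in WT 48 h dishes, against 5.67 to 6.53 in WT basal dishes. The further erythroid markers Hba-a1 and Alas2 were near the floor and not tested. Of 10 neural progenitor markers 4 (40%) were lower in KO and 5 (50%) in WT. Of 9 neuronal markers 3 (33.3%) were higher and 1 (11.1%) lower in KO, and 5 (55.6%) higher and 1 (11.1%) lower in WT. Of 9 markers of cycling cells 1 (11.1%) was higher and 1 (11.1%) lower in KO (median 0.01), and 0 were higher and 5 (55.6%) lower in WT (median -0.33). Their summed level ran from 6.09 to 6.26 in KO 48 h dishes, against 5.93 to 6.14 in KO basal dishes, and from 6.01 to 6.22 in WT 48 h dishes, against 6.12 to 6.69 in WT basal dishes. The summed progenitor level ran from 7.11 to 7.27 in KO 48 h dishes, against 7.23 to 7.39 in KO basal dishes, and from 7.24 to 7.45 in WT 48 h dishes, against 7.20 to 7.58 in WT basal dishes. The summed neuronal level ran from 8.20 to 8.35 in KO 48 h dishes, against 8.03 to 8.19 in KO basal dishes, and from 8.14 to 8.43 in WT 48 h dishes, against 8.09 to 8.27 in WT basal dishes. The part of these shifts in the ribosomal protein values was not tested.

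**Figure D5:**
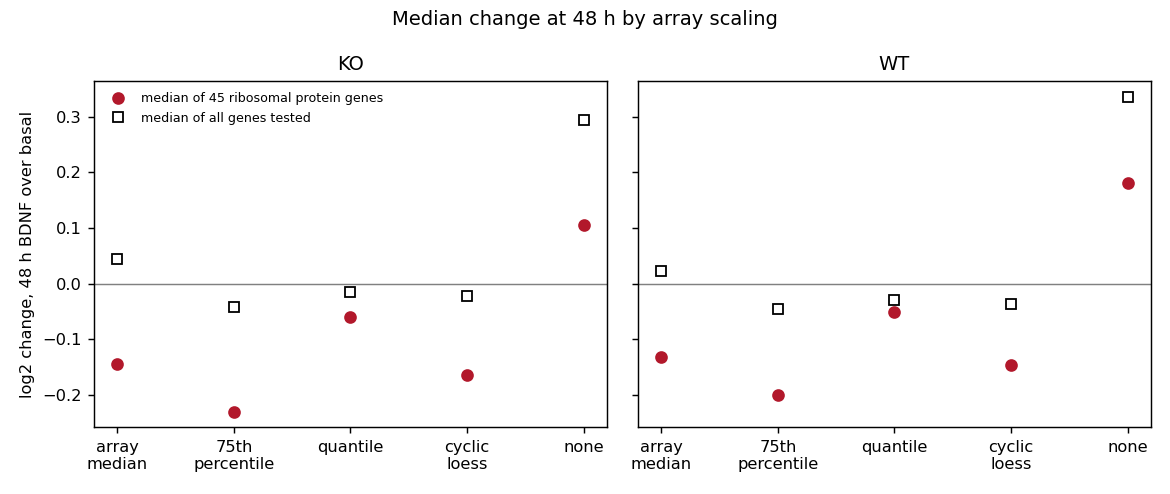
Median log2 change at 48 h of BDNF over basal of the 45 ribosomal protein genes (red circles) and of all 7436 genes tested (open squares) under 5 ways of scaling the arrays, KO left and WT right. The red points lie below the squares under each way, by 0.19 in KO and 0.15 in WT with the array median and by 0.04 and 0.02 with quantile normalization, and lie above zero only without rescaling.

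The set was also read against all genes under each scaling. The median of the 45 genes minus that of all genes tested was -0.19 in KO and -0.15 in WT under the array median, the 75th percentile and no rescaling, which shift all genes of an array alike. It was -0.14 and -0.11 under cyclic loess and -0.04 and -0.02 under quantile normalization. With probe sets that also name other symbols, an alternative chosen after seeing the data, 71 genes were tested, of which 35 were lower and 2 higher in KO and 35 lower and 2 higher in WT.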

How the data were processed

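RNA of each dish was amplified and labelled in 2 rounds and hybridised to 1 Affymetrix Mouse Genome 430A 2.0 array, per the labels' protocols. The authors deposited 1 intensity per probe set, a MAS5 signal on a linear scale per the submitters' processing notes; its version is not given in the sources used here. The design text also describes a median scaling step and a presence-call filter; the deposited intensity values show neither.

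Each array was divided by its median, values were floored at 0.1 of it and log2 was taken. Of 22690 probe sets, 20393 had 1 platform symbol, 691 several and 1606 none; each gene was read from its brightest probe set with 1 symbol. The upper 60% of genes by mean signal were tested in 1 model of 6 groups over 30 arrays with limma 3.58.1 in R 4.3.3 (eBayes with intensity trend), with Benjamini-Hochberg adjustment within each of 11 comparisons and a threshold of 0.05. Intervals are 95% and use the 24 residual degrees of freedom. The script was tested on simulated data. The number of arrays limits the precision. Named genes were those with up to 8 of the most extreme called changes in each direction, the paralogues and their parents, Rplp0, Rpsa and those with the 5 highest and 5 lowest signals, and up to 4 called genes of each other list. The members, lists and tests were chosen with earlier results of these data known.

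Same-numbered dishes of the groups compared had deviations that correlated between -0.17 and 0.28. Of 5 pairs 4 were over 0.1 for KO and WT at 48 h, and fewer in the other comparisons. The numbers were not taken to pair the samples, though 5 pairs cannot exclude it. Alternatives were other scalings, filters, probe set choices, models, left-out arrays and, at 48 h, replicates 1 and 2 or 3 to 5 alone. Cyclic loess and shared probe sets were added after seeing the data.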

Additional observations from a re-analysis of the deposited data

Results flagged for a closer look

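In 84 groups of 5 arrays, for 13 genes and the median of the set, 6 values stood apart from the other 4 arrays of their group, with a gap over 0.71 of the range; chance gives about 1 in 20. In KO 24 h replicate 1 the median over the ribosomal protein genes was 5.76, against 5.98 to 6.05 on the other arrays, and Rplp0 was 5.76, against 5.99 to 6.05. On that array the median is the value of Rplp0 itself, so both flags rest on the same value. The summed share of that array, 2.31%, lay within the KO 24 h range of 2.20% to 2.36%. Rps26 in KO 48 h replicate 5 was 5.70, against 5.49 to 5.54. Rps29 was 7.16 in KO basal replicate 1, against 7.04 to 7.07, and 7.26 in WT 24 h replicate 1, against 6.95 to 7.02. Rpl38 was 6.67 in KO basal replicate 1, against 6.74 to 6.77.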

How the results depend on the processing

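Of 56 called values of single genes, 6 held in every alternative run: the 3 rises of Rpl22l1 and the 3 KO-over-WT differences of Rps27l. A value under an alternative counted as turned where its sign changed and it was called in either fit. A change of sign with no call in either counted as kept. Of 3353 such values of single genes, 2977 were kept and 282 lost the call. A further 58 gained one and 36 turned, 31 of these without rescaling. The cause was not tested. Counts that moved by over 1.5 times follow, among the members tested. Shares of all genes tested also moved with the scaling. Without rescaling 49.6% were higher in KO and 57.7% in WT at 48 h over basal. At 48 h over 24 h it was 26.8% and 61.4%. In KO over WT basal dishes 11.7% were higher with quantile normalization, 11.2% with the 75th percentile and 12.4% with cyclic loess. Without rescaling, 48 h over basal gave 13 higher and 0 lower in KO and 21 higher and 0 lower in WT, 24 h over basal 0 lower in either, 48 h over 24 h 4 higher in KO and 30 higher and 0 lower in WT, and KO over WT 0 lower in basal dishes, 3 higher and 0 lower at 24 h, and 0 lower at 48 h. Changes that turned there in KO at 48 h over basal were Rps29 0.0071, Rpl38 0.019, Rps20 0.022, Rps18 0.026, Rpl22 0.032, Rps26 0.034, Rps27l 0.038 and Rpl7 0.10. In WT they were Rps27l 0.032, Rps6 0.043, Rps26 0.060, Rplp0 0.085, Rpl7l1 0.088, Rpl35 0.10, Rpl10a 0.11, Rpl7 0.24 and Rps4x 0.19. In WT at 48 h over 24 h they were Rps6 0.033, Rpl14 0.072, Rps27l 0.083, Rpl35 0.090, Rpl6 0.10, Rpl7a 0.11, Rpl8 0.13, Rpl38 0.14, Rpl7 0.29 and Rps4x 0.20, and in KO over WT at 24 h Rpl35 0.012, Rpl38 0.013, Rpl7 0.033 and Rps4x 0.033.

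With quantile normalization WT had 5 lower at 24 h and 13 lower at 48 h over basal, 7 lower at 48 h over 24 h, where KO had 1 higher, and KO over WT gave 9 higher and 0 lower in basal dishes, 4 and 1 at 24 h, and 6 and 1 at 48 h. With the 75th percentile KO had 9 lower at 24 h, 32 at 48 h and 7 at 48 h over 24 h, WT had 3 lower at 24 h, KO over WT gave 6 higher and 0 lower in basal dishes, 3 and 2 at 24 h and 1 lower at 48 h, and the response at 48 h 1 lower. With cyclic loess, chosen after seeing the data, KO had 10 lower at 24 h and 4 at 48 h over 24 h, WT had 6 lower at 24 h, KO over WT gave 10 higher and 0 lower in basal dishes, 4 and 1 at 24 h, and 5 and 0 at 48 h, and the 48 h response 1 lower. With shared probe sets, also chosen after seeing the data, KO had 7 lower at 24 h, 2 higher and 35 lower at 48 h and 3 lower at 48 h over 24 h, WT had 0 lower at 24 h, 35 at 48 h and 22 at 48 h over 24 h, KO over WT gave 18 lower at 24 h and 2 higher and 4 lower at 48 h, and Rps6 in KO at 24 h was 0.0020.

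With the mean of probe sets KO had 0 lower at 24 h, 2 higher at 48 h and 2 lower at 48 h over 24 h, WT had 1 higher and 12 lower at 48 h and 0 higher and 7 lower at 48 h over 24 h, where Rps9 was -0.053, and KO over WT gave 1 higher in basal dishes, 6 lower at 24 h, where Rpl7 was 0.0076, and 1 lower at 48 h. Without probe sets that may match several genes (suffixes _s_at and _x_at) KO had 2 higher and 9 lower at 48 h, where Rps18 was 0.084, WT had 13 lower at 48 h and 8 at 48 h over 24 h, where Rpl35 was 0.0071, and KO over WT gave 1 and 1 in basal dishes, 2 higher and 6 lower at 24 h and 0 lower at 48 h. With no filter WT had 0 lower at 24 h, KO 1 lower at 48 h over 24 h, and KO over WT 1 lower in basal dishes and 1 at 48 h; with the upper 40% of genes KO had 1 lower at 48 h over 24 h. With the arrays compared alone WT had 5 lower at 48 h over 24 h, and KO over WT 1 lower in basal dishes, 3 at 24 h and 1 at 48 h. Without the intensity trend WT had 1 higher at 24 h and 7 lower at 48 h over 24 h, and KO over WT 1 lower in basal dishes, 5 at 24 h and 1 at 48 h. With array weights KO had 9 lower at 24 h and 1 at 48 h over 24 h, WT 1 higher at 24 h, KO over WT 1 lower at 48 h, and the 48 h response 1 lower. With the Gapdh ratio as a covariate KO had 7 lower at 24 h and 7 at 48 h, WT 1 higher and 6 lower at 48 h and 0 higher and 2 lower at 48 h over 24 h, KO over WT 1 lower in basal dishes, and the 48 h response 1 lower. With 48 h replicates 1 and 2 alone KO had 11 and WT 8 lower at 48 h over basal, and WT 0 lower at 48 h over 24 h; with replicates 3 to 5 alone KO had 2 lower at 48 h over 24 h, and KO over WT 0 lower at 48 h.

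With the replicate number as a block KO over WT at 24 h had 2 higher and the 48 h response 1 lower; 21 were lower in KO and 22 in WT at 48 h over basal, and no other count moved by over 1.5 times. Same-numbered dishes correlated best with each other in 0 to 3 of 5 pairs, which neither shows nor excludes that the numbers pair the samples.

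With 1 array left out, 24 h over basal gave 2 to 5 lower and 1 higher in KO and 0 to 1 lower and 0 to 1 higher in WT. At 48 h over basal there were 15 to 21 lower in KO and 10 to 24 lower in WT. At 48 h over 24 h there were 0 to 1 lower in KO, the 1 without KO 24 h replicate 3, and 4 to 13 lower in WT. KO over WT gave 2 to 4 higher and 0 to 3 lower in basal dishes, with 4 higher without WT basal replicate 4, 0 lower without KO basal replicate 2 and 1 lower without KO basal replicate 4 or WT basal replicates 2, 3 or 4. It gave 3 to 12 lower at 24 h and 1 to 2 lower at 48 h, 1 without any of KO 48 h replicates 1, 2 and 5 and WT 48 h replicates 1, 2 and 4. The 48 h response gave 0 to 1 lower, 1 without KO 48 h replicate 4, WT 48 h replicate 3 or WT basal replicate 4. Dim probe sets limit what can be read for Rpl39, Rpl12, Rpl14, Rps6, Rpl27a and Rpl37.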
